A study of Mus musculus with 6 samples.

Results

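The genes described here are 9 genes that write, maintain, remove or regulate DNA methylation: Dnmt1, Dnmt3a, Dnmt3b, Dnmt3l, Tet1, Tet2, Tet3, Uhrf1 and Zbtb24. They were taken by gene name from 10 tables of promoter regions and 6 lists of methylation peaks, in which 30 of 29559 listed regions and 14 of 30143 peaks carried one of these names. DNA methyltransferases add a methyl group to cytosine. Dnmt1 copies the mark to the new strand after replication, guided by Uhrf1, while Dnmt3a and Dnmt3b set it de novo with the help of the catalytically inactive Dnmt3l. The TET enzymes oxidise methylcytosine, which opens a path to its removal, and Zbtb24 is a zinc finger protein whose human gene is mutated in a syndrome of lost centromeric methylation.

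Methylated DNA was captured by immunoprecipitation and sequenced (MeDIP-seq) in 6 libraries of cells from ICR mice, 1 library a group. The fibroblasts (MEF) came from E13.5 embryos and served as the negative control. Induced neurons made from such fibroblasts were taken at 1, 3, 5 and 7 dpi, a time label that is used here as given, and the positive control was primary hippocampal neurons of pups aged 1 day. The labels give passages 3 to 5 for every sample and name no inducing factor or vector. With 1 library a group there is no replicate error, so nothing below is a test of a condition. MeDIP measures captured DNA and not transcripts, so cell type markers could not be checked. All positions are in mm10.

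Each promoter table sets 1 library against MEF and holds only regions within 2 kb of a start site that passed the authors' threshold. A gene or time that is not listed therefore has no value. Reads below are whole reads in the region. At 1, 3 and 5 dpi the deposited values are whole reads, and at 7 dpi and in primary neurons they are scaled and were divided by the value of 1 read. Folds use the deposited values. A fold against 0 reads is written "at least" and puts 3 reads of that library in place of 0. Intervals are exact 95% intervals of the counts. The intervals describe counting error alone, and the "at least" folds only that of the lower library. The reads carried no stated molecular identifiers, so copies of 1 molecule may be counted more than once. In the listed regions of the 9 genes the higher library had 10 to 43 reads with a median of 13, the same median as over all 29559 regions. The lower library had 0 reads in 28 of the 30 regions, beside 89.5% of all regions. Where reads are not scaled, a region with 0 reads on one side needs 11 on the other for a p of 0.0001. In the scaled lists the lowest counts of the higher library were 10 (higher) and 13 (lower) at 7 dpi. They were 12 (higher) and 11 (lower) in primary neurons. The 11 of the 30 regions with at most 12 reads sit close to the limit of listing, as does Tet2 in primary neurons with 13.

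By the authors' starts, 12 regions lay upstream (40%, beside 45.0% of all regions), 4 across the start (13.3%, beside 5.87%) and 14 downstream (46.7%, beside 49.2%). Of the 4 across, 3 are 1 Tet1 site listed in 3 comparisons, at a start that the RefSeq table does not hold, and by RefSeq starts 1 of the 30 regions, that of Tet2 at 5 dpi, lies across. The regions fell into 16 separate sites, 10 with more reads than MEF and 6 with fewer. None was listed in both directions, but all comparisons share the MEF library, so this was largely fixed in advance. Of the 9 genes, 8 were listed at least once, beside 43.5% of the 26220 RefSeq genes with a curated transcript, while Dnmt3a was in no table. The 9 genes were chosen with earlier results known, Zbtb24 among them, and they have 16 RefSeq starts or 1.78 a gene beside 1.22 for all genes in the promoter table. More starts give a gene more windows to be listed in, and the part of this in the counts was not tested. All 6 sites with fewer reads than MEF belonged to Dnmt1 and Tet1. The 10 sites with more reads belonged to 7 genes, and 9 of them were listed in 1 comparison each, the site in Zbtb24 being the other.

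**Figure D1:**
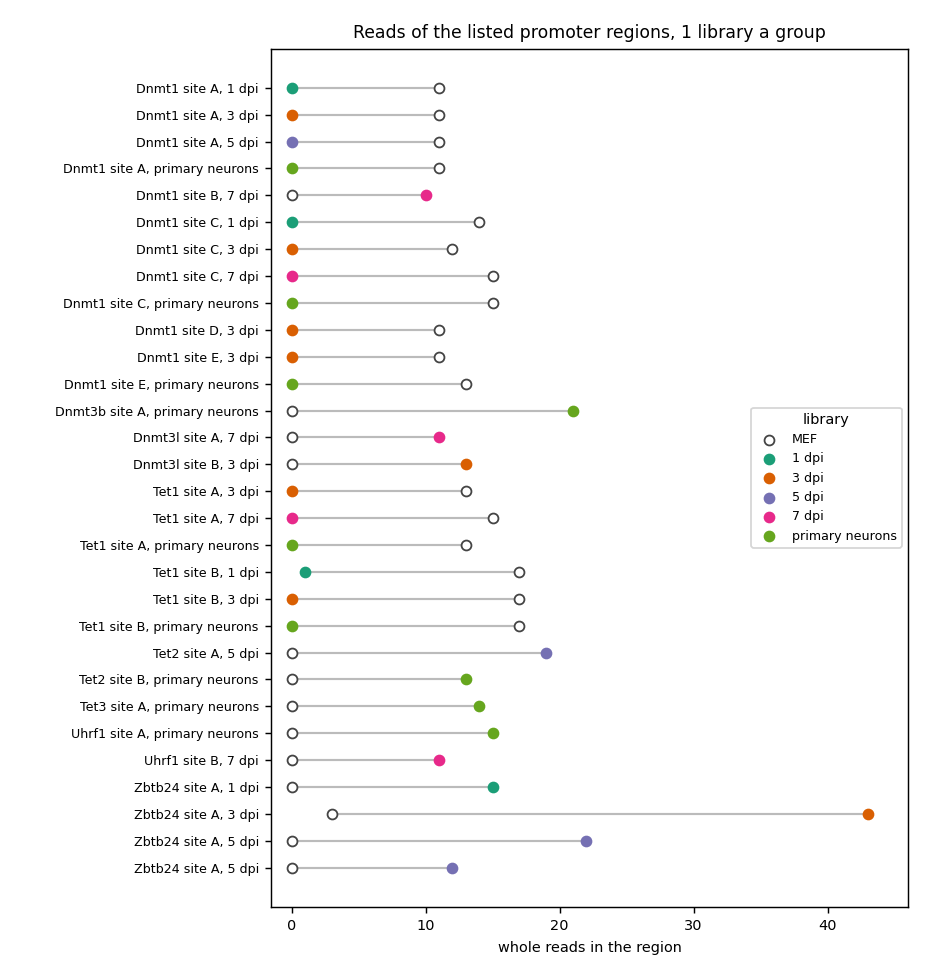
Whole reads in each of the 30 listed regions, with MEF as open circles and the compared library as filled circles in 1 colour a library. Letters separate the sites of a gene in order of position on the chromosome, and the line joins both values. The longest line is Zbtb24 at 3 dpi, with 43 reads against 3, and all lines of Dnmt1 but 1 run from 0 reads to 11 to 15 in MEF.

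Dnmt1, the maintenance methyltransferase, was listed as lower than MEF in all 5 comparisons, as were 3.92% of all genes. The comparisons share the MEF library, so that 1 high MEF value can place a gene in all of them. No single Dnmt1 site was listed in all 5. RefSeq gives the gene 3 starts on the minus strand of chromosome 9, at 20959888, 20952979 and 20952623.

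The most repeated Dnmt1 sites lay downstream of the first and of the third start. At the one 648 to 1027 bp after the first start (chr9:20958861-20959240) the libraries of 1, 3 and 7 dpi and of primary neurons had 0 reads. MEF had 14, 12, 15 and 15 reads there, the differences going with the width of the region listed, which was 200 bp at 3 dpi and 380 bp in primary neurons. The fold was at least 5.36 in primary neurons, and the authors' deposited table gives a p of 3.49e-06 for it. The other site, 903 to 1282 bp after the third start (chr9:20951341-20951720), was listed at 1, 3 and 5 dpi and in primary neurons. It had 0 reads in each of these libraries against 11 in MEF, the lowest number that can be listed against 0 when reads are not scaled.

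Upstream of the first Dnmt1 start, 2 further sites had fewer reads than MEF. One, 1033 to 1412 bp before the start, was listed at 3 dpi (0 against 11 reads) and in primary neurons (0 against 13), and the other, 713 to 972 bp before it, at 3 dpi alone (0 against 11). One site went the other way. At 7 dpi the library had 10 reads against 0 in MEF (at least 4.44-fold) in a region 642 to 941 bp before the second start, inside the RefSeq span of the gene (chr9:20953621-20953920). That region was listed on scaled values, in which 1 read of the 7 dpi library is worth 1.15. The same test on its unscaled reads does not reach a p of 0.0001. The 7 dpi library thus had 1 Dnmt1 site above MEF and 1 below it, at different starts.

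**Figure D2:**
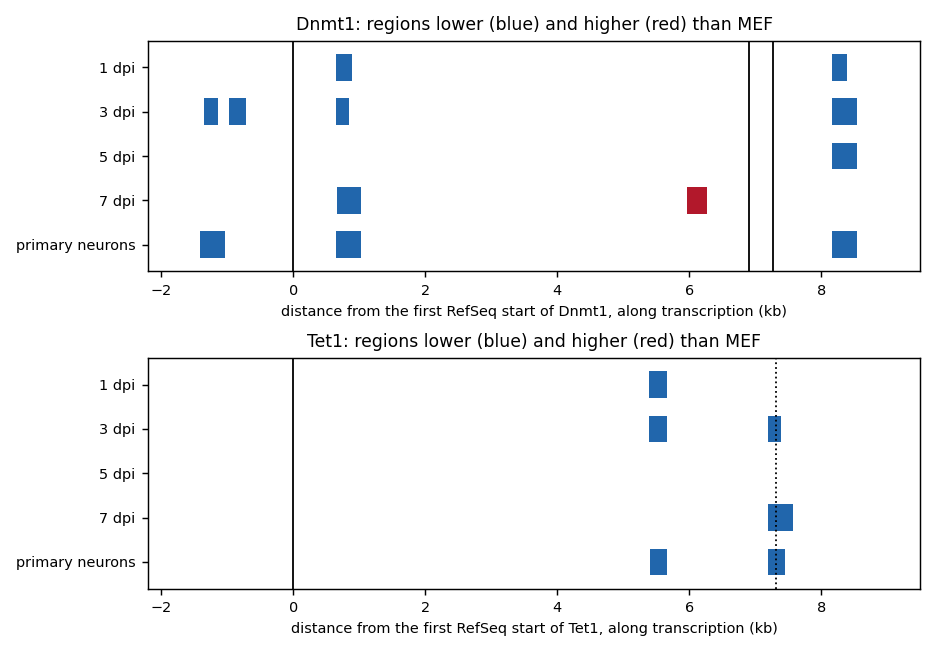
Position of the listed regions of Dnmt1 and Tet1 in each comparison, in kb along transcription from the first RefSeq start. Solid lines mark RefSeq starts, the dotted line marks the Tet1 start that the authors used, and blue and red bars have fewer and more reads than MEF. For Dnmt1 the bars downstream of the outer starts recur in 4 comparisons each, and for Tet1 all bars lie more than 5 kb inside the gene.

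Uhrf1, which binds hemimethylated DNA and brings Dnmt1 to it, had 2 sites with more reads than MEF, 1 near each of its RefSeq starts on chromosome 17. At 7 dpi the library had 11 reads against 0 (at least 4.89-fold) at chr17:56303801-56304180, ending 133 bp before the second start. In primary neurons it had 15 against 0 (at least 4.67-fold) at chr17:56302741-56303120, ending 217 bp before the first start. On unscaled reads the bounds were 3.67 at 7 dpi and 5 in primary neurons. The sites do not overlap, and neither was listed at 1, 3 or 5 dpi. The authors' deposited table gives q-values of 0.0013 at 7 dpi and 0.000318 in primary neurons. The 250 bases before each start are shown because the listed regions run into them. Both are RefSeq sequences of GRCm38.p6, plus strand, read 5′ to 3′, with the bases inside the listed region in capitals.
Uhrf1 first start, chr17:56303087-56303336, primary neurons: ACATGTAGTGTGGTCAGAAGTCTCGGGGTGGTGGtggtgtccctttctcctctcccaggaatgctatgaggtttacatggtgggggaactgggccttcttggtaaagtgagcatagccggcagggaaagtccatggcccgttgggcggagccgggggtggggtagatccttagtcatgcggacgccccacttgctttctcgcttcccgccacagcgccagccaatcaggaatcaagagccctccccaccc
Uhrf1 second start, chr17:56304063-56304312, 7 dpi: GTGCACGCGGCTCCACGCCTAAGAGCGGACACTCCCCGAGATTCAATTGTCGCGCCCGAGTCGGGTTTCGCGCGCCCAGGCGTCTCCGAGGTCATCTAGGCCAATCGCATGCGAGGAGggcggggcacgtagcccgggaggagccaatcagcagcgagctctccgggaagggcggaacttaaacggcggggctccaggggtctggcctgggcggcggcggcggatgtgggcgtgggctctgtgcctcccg
The 2 windows differ in CG dinucleotides, the letters C then G, which read the same on both strands and are the usual place of the methyl mark. The first holds 10 and the second 30, of which 1 and 16 lie inside the listed regions. At least 10 are found in 37.8% and at least 30 in 5.94% of the 32851 RefSeq promoter windows of that length, whose median is 6.

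Of the de novo enzymes, Dnmt3b was listed and Dnmt3a was not, where 43.5% of all genes were listed at least once. Dnmt3a had no listed region in any comparison, and its windows before the 3 RefSeq starts hold 38, 40 and 15 CG dinucleotides in 250 bases. Its only entry was a gene body peak in MEF at chr12:3903120-3903599, with 38 tags at the summit and a 7.21-fold enrichment, which ranked 307 among 2165 MEF peaks. Peak folds and tags are the authors' own scores and describe peaks within 1 library. No peak of another library overlapped it. Dnmt3b was listed in primary neurons alone, with 21 reads against 0 in MEF (at least 6.53-fold) at chr2:153648321-153648700, which ends 749 bp before its RefSeq start and outside the gene. The authors' deposited table gives that region a q of 2.59e-05. It had the most reads of the members' regions in primary neurons, at 5.53 reads per 100 bp, and ranked 688 among the 6173 regions higher than MEF.

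Dnmt3l, the cofactor of the de novo enzymes that is best known from germ cells, had 2 sites with more reads than MEF, 1 at each of a pair of its 3 RefSeq starts. At 3 dpi the library had 13 reads against 0 (at least 4.33-fold) at chr10:78050141-78050340, 299 to 498 bp inside the second start. At 7 dpi it had 11 against 0 (at least 4.89-fold) at chr10:78041761-78042140, 147 to 526 bp before the first start. On unscaled reads the 7 dpi bound was 3.67. RefSeq places the latter region inside the span of Aire, the neighbouring gene of a regulator of thymic tolerance. The 250 bases before the first start of Dnmt3l follow, plus strand of GRCm38.p6 from RefSeq, because the 7 dpi region covers the 104 bases in capitals.
Dnmt3l first start, chr10:78042037-78042286, 7 dpi: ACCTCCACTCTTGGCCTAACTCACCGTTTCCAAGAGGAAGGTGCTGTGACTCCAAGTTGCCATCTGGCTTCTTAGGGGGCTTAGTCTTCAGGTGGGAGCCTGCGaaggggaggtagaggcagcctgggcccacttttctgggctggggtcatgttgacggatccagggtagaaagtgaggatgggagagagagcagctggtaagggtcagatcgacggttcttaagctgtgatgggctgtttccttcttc
This window holds 5 CG in all and 2 in the listed bases, and 55.6% of promoter windows hold at least 5.

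Of the TET genes, Tet1 was listed only as lower than MEF, and Tet2 and Tet3 only as higher. The Tet1 sites lie at least 5384 bp inside the gene by its RefSeq start, so like positions are not compared. Tet1 was lower in 4 comparisons, those of 1, 3 and 7 dpi and of primary neurons. Of all genes, 8.65% were listed as lower in at least 4. It had no entry in either direction at 5 dpi. One site spans the start used by the authors (chr10:62879761-62880140). There the libraries had 0 reads, against 13 in MEF for the regions listed in primary neurons and at 3 dpi and 15 for the wider one at 7 dpi. The other lies 1647 to 1926 bp before that start (chr10:62881661-62881940) and had 1 read at 1 dpi and 0 at 3 dpi and in primary neurons. MEF had 17 reads there in each of these comparisons. The 1 dpi value was 17-fold lower with an interval of 2.66 to 710, and the folds of 3 dpi and primary neurons were at least 5.67 and 6.07. The authors' deposited table gives p-values of 1.21e-06 at 3 dpi and 7.85e-07 in primary neurons.

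The start that the authors' tables use for Tet1 comes from a transcript that is not among the transcripts of Tet1 in the RefSeq table used here. The RefSeq start lies 7310 bp further upstream, at 62887324. Measured from it, the sites lie 7184 to 7563 bp and 5384 to 5663 bp inside the gene, and inside the span of a long noncoding RNA, Gm51805, that overlaps it. By this annotation the fewer reads of Tet1 are at gene body positions. A region at the RefSeq start is over 2 kb from the start that the authors used, so the tables say nothing of that promoter. The window before that start holds 15 CG dinucleotides in its 250 bases.

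Tet2 had more reads than MEF at 5 dpi, in a region across its start, and in primary neurons, in a region 671 to 1050 bp before it. The counts were 19 against 0 at 5 dpi (at least 6.33-fold, chr3:133544141-133544520) and 13 against 0 in primary neurons (at least 4.04-fold, chr3:133545061-133545440). The regions do not overlap. In the authors' deposited table the 5 dpi region has a q of 0.000167 and the one in primary neurons 0.000786. The 5 dpi region runs 130 bases into the window before the start, given here from RefSeq (GRCm38.p6, minus strand, 5′ to 3′) with those bases in capitals.
Tet2 start, chr3:133544391-133544640, 5 dpi: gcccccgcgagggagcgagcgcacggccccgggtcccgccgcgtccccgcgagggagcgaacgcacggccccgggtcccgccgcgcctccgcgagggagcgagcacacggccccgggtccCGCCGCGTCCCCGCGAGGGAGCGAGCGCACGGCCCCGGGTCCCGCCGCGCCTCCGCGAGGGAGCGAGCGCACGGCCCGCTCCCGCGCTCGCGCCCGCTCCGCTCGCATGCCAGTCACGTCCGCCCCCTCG
It holds 51 CG dinucleotides, 28 of them in the capitals, and 0.067% of all promoter windows hold as many. The run GCGAGGGAGCGA occurs 5 times on this strand and 0 times on the other, with 2 copies in the capitals, and in 2.62% of promoter windows some run of 12 bases occurs that often. Tet3 was listed in primary neurons alone, with 14 reads against 0 (at least 4.36-fold) at chr6:83440181-83440500, 1178 to 1497 bp inside the start.

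Peaks assigned to Tet2 lay far from its promoter. MEF had one in the gene body, 49.6 kb after the start (4.99-fold). The others were intergenic and upstream, at 157 kb in the 7 dpi library (6.25-fold) and at 69.4 kb (6.45-fold) and 178 kb (5.16-fold) in primary neurons. None overlapped a peak of another library. Tet1, Tet3, Dnmt3b, Dnmt3l and Uhrf1 had no peak of any class in any library.

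Zbtb24 was listed as higher than MEF at 1, 3 and 5 dpi, as were 0.378% of all genes. The regions of all 3 times lie at one site, 1323 to 1962 bp inside the RefSeq start on the plus strand of chromosome 10 (chr10:41451681-41452320). The libraries had 15 reads against 0 at 1 dpi and 43 against 3 at 3 dpi. At 5 dpi the site was split into a region of 22 against 0 and one of 12 against 0. At 3 dpi the fold was 14.3 with an interval of 4.59 to 72.2. It was at least 5 at 1 dpi and at least 7.33 and 4 in the 2 regions at 5 dpi. Per length the 3 dpi region had 9.35 reads per 100 bp, the highest of the 30 regions, against 0.652 in MEF, and in number of reads it ranked 15 among 1439. The site was not listed at 7 dpi or in primary neurons, and its values there are not given.

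A peak about 13 kb upstream of Zbtb24 was present in all 5 libraries other than MEF and not in the MEF list. The summits lay 12.6 to 13 kb before the start, and the peaks share 501 bp (chr10:41437323-41437823). This stretch is in no RefSeq gene and begins at least 3.57 kb beyond the end of Ak9, an adenylate kinase gene. The enrichment was 5.55-fold at 1 dpi (39 tags), 6.79-fold at 3 dpi (36 tags) and 10.9-fold at 5 dpi (64 tags), then 7.05-fold at 7 dpi (36 tags) and 8.39-fold in primary neurons (51 tags). Within its own library the peak ranked 408 of 3918 at 5 dpi, 2958 of 14091 at 7 dpi and 496 of 6636 in primary neurons. It ranked 1561 of 1886 at 1 dpi and 800 of 1447 at 3 dpi, below the median enrichments of 7.06 and 6.97 of those libraries. Genes with a peak of any class in these 5 libraries and none in MEF made up 1.05% of all genes. That share does not require the peaks of a gene to overlap, and the share with overlapping peaks was not counted. The lists differed in length, with 2165 peaks for MEF, fewer for 1 dpi (1886) and 3 dpi (1447) and more for 5 dpi (3918), 7 dpi (14091) and primary neurons (6636), and the part of this in the absence from MEF was not tested.

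The 5 dpi library had 2 further Zbtb24 peaks, one 4.85 kb before the start (6.56-fold) and one of the promoter class 1.66 kb after it. The latter, chr10:41451608-41452151, overlaps both 5 dpi regions of the site described above and had 31 tags, but its 3.16-fold enrichment ranked 3836 of 3918 in that library. It was the only promoter peak of the 9 genes. Promoter peaks were assigned to 0.461% of all genes at 5 dpi. In the other lists none of the 9 genes had one, where promoter peaks went to 0.195% of all genes (MEF), 0.24% (1 dpi), 0.107% (3 dpi), 1.73% (7 dpi) and 0.622% (primary neurons). At 3 dpi, where the region held most reads, no peak was listed there. Dnmt1 also had a peak, at 1 dpi (5.30-fold) and 5 dpi (7.40-fold). It lies 8.13 and 7.95 kb before the first Dnmt1 start, inside the RefSeq span of the sphingosine receptor gene S1pr2.

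**Figure D3:**
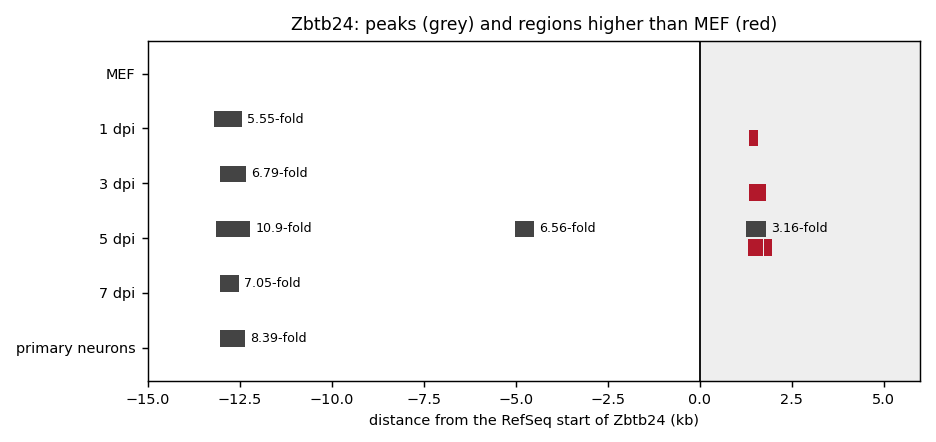
Peaks (grey, with the authors' fold enrichment) and promoter regions higher than MEF (red) assigned to Zbtb24 in each library, in kb from the RefSeq start, with the gene shaded. The upstream peak is present in the other 5 libraries at 5.55-fold to 10.9-fold and absent from the MEF list, and the red bars are at 1, 3 and 5 dpi.

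Counted by comparison, the genes listed as higher than MEF were 1 of 9 at 1 dpi (1.77% of all genes), 2 at 3 dpi (5.23%) and 2 at 5 dpi (3.85%). The 7 dpi library had 3 (12.4%) and primary neurons had 4 (20.4%). Genes listed as lower were Dnmt1 and Tet1 at 1 dpi (10.6% of all genes), 3 dpi (13.2%), 7 dpi (8.87%) and in primary neurons (15.3%). At 5 dpi Dnmt1 alone was lower (10.7%). Higher genes were Zbtb24 alone at 1 dpi, Dnmt3l and Zbtb24 at 3 dpi, and Tet2 and Zbtb24 at 5 dpi. Primary neurons had Dnmt3b, Tet2, Tet3 and Uhrf1, and 7 dpi had Dnmt1, Dnmt3l and Uhrf1. Values are scaled at 7 dpi and in primary neurons and not at the earlier times, so group and scaling cannot be told apart. The 3 higher genes of 7 dpi had 10 or 11 reads each and were all lost with a minimum of 13 reads. So were 59.3% of all regions higher than MEF at 7 dpi. Peaks of any class were assigned to 2 of the 9 genes in MEF (6.9% of all genes), at 1 dpi (5.97%), 5 dpi (11.1%), 7 dpi (29.2%) and in primary neurons (16.8%), and to 1 at 3 dpi (4.51%).

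Of 61 further genes of the methylation pathway, 60 were found in RefSeq. Of these 60, 30 had a listed region, beside 43.5% of all genes. The pathway genes are partners of the methyltransferases, readers of methyl-CpG, repair enzymes, TET cofactors and genes of the methyl donor cycle. In the order 1, 3, 5 and 7 dpi and primary neurons, 2, 1, 0, 10 and 20 were higher than MEF, beside the shares of all genes given above, and 4, 3, 3, 4 and 5 were lower. At the first 3 times the higher genes were Ehmt1, which encodes a histone methyltransferase (12 reads against 0), Cdca7, whose human gene is mutated in the same syndrome as ZBTB24 (11 against 0), and Dppa3, which protects methylation in the early embryo (11 against 0).

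In primary neurons, where 20.4% of all genes were higher, the higher genes were 5 of 8 TET cofactors and regulators, 8 of 17 genes of removal and repair, 4 of 18 partners, 2 of 9 genes of the methyl donor cycle and 1 of 8 methyl-CpG readers, Mbd1. Differences between these roles were not tested. Ahcyl1, related to the enzyme that clears S-adenosylhomocysteine, had 26 reads against 0, Parp1, a sensor of DNA breaks, 21 against 2, and Neil3, a DNA glycosylase, 19 against 0. At 7 dpi Parp1 had 27 reads against 2, the germ cell silencing gene Morc1 23 against 4 and Mat2b 19 against 0. Morc1 and Mat2b each had another region that was listed as lower at 7 dpi, and Morc1 had regions in both directions in primary neurons too.

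Of the 60 genes, 1 was lower in all 5 comparisons, beside 3.92% of all genes, and 2 were lower in at least 4, beside 8.65%. These comparisons share the MEF library, and neither count is above the share of all genes. Cbx5, which encodes the heterochromatin protein HP1 alpha, was lower in all 5, with 3, 0, 1, 0 and 2 reads at 1, 3, 5 and 7 dpi and in primary neurons against 19 in MEF each time. Mat2b, a subunit of the enzyme that makes the methyl donor, was lower in 4. It had 1 read against 21 at 1 dpi and 1 against 20 at 3 dpi, and 0 against 20 at 7 dpi and 2 against 21 in primary neurons. Cdca7 had 0 against 18 at 5 and 7 dpi and in primary neurons, at another region than its higher one of 1 dpi.

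**Figure D4:**
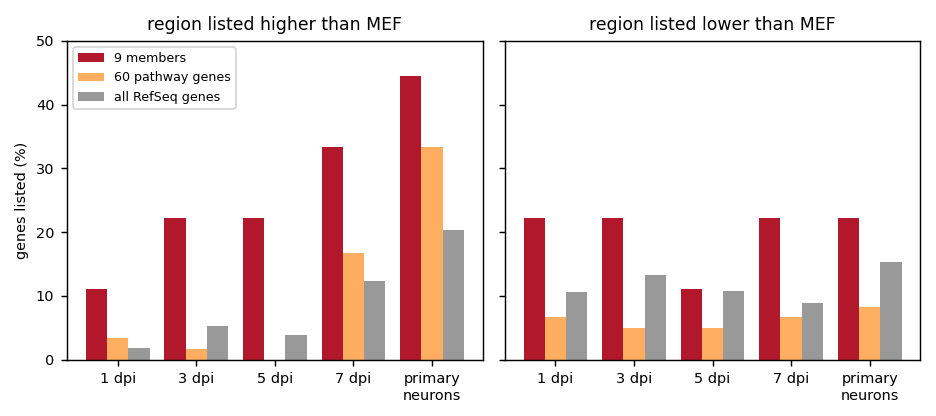
Share of genes with a region listed as higher (left) or lower (right) than MEF in each comparison, in percent, for the 9 genes, 60 further pathway genes and 26220 RefSeq genes. In primary neurons the higher shares are 44.4%, 33.3% and 20.4%, and with 9 genes each gene moves a red bar by 11.1 percentage points.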

How the data were processed

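MeDIP-seq libraries of 6 groups were analysed, 1 a group, from 10 tables of promoter regions and 6 peak lists. Per the submitters' processing notes, CASAVA, Bowtie2 2.1.0 and mm10 were used. For the peak caller and the test, the sources used here give no name. Library totals were not analysed here, so depth is unknown. The authors deposited whole read counts at 1, 3 and 5 dpi. At 7 dpi and in primary neurons they deposited a scaled signal in which 1 read is worth 1.15 and 0.966, and 0.866 and 1.04 in MEF. Dividing gave whole reads (within 0.1) for 100% of values up to 20 reads. From the deposited files were copied the q-values, p-values and log2 fold changes of regions, and for peaks a fold enrichment ratio and −log10 of q. Members were matched by gene name, and regions of a gene that overlap by 1 bp or more form a site. RefSeq (GRCm38.p6) gave starts, spans and sequences. Background shares are of 26220 genes with a curated transcript. The members and lists were chosen with earlier results of these data known. All 9 members are named. Of the pathway list at most 3 genes a comparison and direction are named, by reads, besides genes in counts of 5 or fewer chosen after their values were seen. The values of 1 gene of that list are not reported here. Alternatives were a stricter p, a minimum of 13 reads, RefSeq starts, unscaled reads, and stricter peaks and overlaps. The steps were tested on simulated data. Python 3.11.15, numpy 2.4.6, scipy 1.17.1, pandas 2.3.3 and matplotlib 3.10.9 were used.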

Additional observations from a re-analysis of the deposited data

How the results depend on the processing

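No paired analysis was possible because each group has 1 library, and no library could be left out for the same reason. With p of at most 1e-05, the genes of the 9 listed as higher than MEF were 1 at 3 dpi, 0 at 7 dpi and, for primary neurons, 2, and those listed as lower were 0 at 1, 5 and 7 dpi and 1 at 3 dpi. With at least 13 reads they were 0 higher at 7 dpi, and 1 lower at 3 dpi and 0 at 5 dpi. Every region in the 7 dpi lower list had at least 13 reads, so that count could not change. Of the 30 regions 30% met the stricter p and 63.3% the minimum, beside 31.0% and 61.6% of all regions. With a region required within 2 kb of a RefSeq start, 1 gene was lower at 1, 3 and 7 dpi and 1 in primary neurons, because Tet1 drops out. Without intergenic peaks the genes with a peak were 1 at 5 dpi and 0 in the lists of 1, 3 and 7 dpi and of primary neurons, and with at least 5-fold enrichment 1 in MEF. An overlap of 50% of the shorter interval left 1 region over a peak in place of 2, and 6 sites recurring as before. Of the pathway list, p of at most 1e-05 left as higher 0 at 1 and 3 dpi, 4 at 7 dpi and 8 in primary neurons, and as lower 1 at 1 dpi and 2 in primary neurons. The minimum of 13 reads left as higher 0 at 1 and 3 dpi and 4 at 7 dpi, and as lower 3 in primary neurons. On unscaled reads 2 genes in place of 3 were higher at 7 dpi, and the other counts of the 9 genes at 7 dpi and in primary neurons were as before. The 14 bounds of those comparisons, which have no counting interval, then ran from 3.33 to 7. A −log10 q of at least 3 removed no peak, since the lowest was 5.01.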

Other observations

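For each site listed in at least 3 comparisons, sites of other genes listed in exactly the same comparisons and direction were ranked by the Euclidean distance of log2 of (library + 1) over (MEF + 1). All share the MEF library and the measure describes likeness only. Nearest to the Zbtb24 site, among 22 sites over 3 comparisons, were Gnas (0.43), Cenpn (0.48) and 4933416C03Rik (0.59). Nearest to the Dnmt1 site after the first start, among 236 over 4 comparisons, were Schip1 and Zmiz2 (0.093 each) and Gria2 (0.146). For the Dnmt1 site after the third start 312 of 661 sites had a distance of at most 0, so no gene is named. For the Tet1 site across the authors' start they were Gm4794 (0.087), Maff and Slc24a3 (0.0926 each) of 198, and for the upstream one Espn (0), Gm2083 (0.39) and BC003331 (0.47) of 296, each over 3 comparisons.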
